A study of Mus musculus with 11 samples.

Results

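SA1-alone peaks are the intervals of the wild-type SA1 list at which no other cohesin subunit was called. They were chosen by their overlaps with the other lists: they overlap, by 1 bp or more, no interval of the SA2, SMC1 and SMC3 lists of either genotype. They numbered 4049 of the 26602 wild-type SA1 peaks, which is 15.2% (95% Wilson interval 14.8 to 15.7%), among 163094 intervals in all 10 lists. Those overlaps are given as a description, without a test. An SA1-alone peak is a position without a called peak of another subunit, and the lists cannot show that another subunit was absent there.

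Cohesin is a ring of SMC1, SMC3 and a kleisin that holds sister chromatids together and forms chromatin loops. In somatic vertebrate cells each ring carries either SA1 or SA2 (STAG1 or STAG2), which bind the kleisin and help to hold the ring on chromatin. SA1 is known mainly as a part of this complex, and in mammalian cells most cohesin positions coincide with the DNA-binding protein CTCF.

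The study used chromatin immunoprecipitation and sequencing (ChIP-seq) in untreated mouse embryonic fibroblasts, which are primary cells from E12.5 embryos of a C57BL/6 x 129 Sv background. The cells were SA1-null or wild type, and antibodies against SA1, SA2, SMC1 and SMC3 were used in each genotype. SA1-null SMC1 had 2 samples that share 1 list, every other antibody and genotype had 1 sample, and the 2 input DNA samples were pools over both genotypes. The labels do not say how SA1 was removed, how many embryos gave cells or what sex they had. The lists hold positions only, with no height or score, and sequencing depth is unknown. With 1 list per group there was no replicate spread, so the intervals given stand for counting error within the lists alone, and the number of chromosomes that share a direction is given beside them. Positions are in the mouse build mm9, counted from 1. Genes, promoters and base sequence were not analysed here, because no genome or annotation of that build was used.

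The lists that chose the SA1-alone peaks were of unequal length. SA1-null cells gave 6352 SA2, 47003 SMC1 and 34802 SMC3 peaks, and wild-type cells gave 7741 SA2, 24000 SMC1 and 15564 SMC3 peaks. As the names of the lists show, SA2 of both genotypes and wild-type SA1 shared an input, and all SMC1 and SMC3 lists were called against the second input. The SA1-null lists, which hold more SMC1 and SMC3 peaks, set much of the count. Against the 3 wild-type lists only, 8197 SA1 peaks (30.8%) had no other subunit.

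SA1 peaks fell unevenly over the 6 lists. Besides the 4049 with no other list, 2178 SA1 peaks overlapped 1 list, 2774 overlapped 2, 3689 overlapped 3, 7348 overlapped 4, 4141 overlapped 5 and 2423 overlapped all 6. The largest of these groups had 4 lists, and the SA1-alone peaks were more numerous than the peaks with 1, 2 or 3 lists. Of the 2178 SA1 peaks with a single other list, 1309 had the SA1-null SMC1 list and 452 the SA1-null SMC3 list. The SA1-null SA2 list gave 113 of them, and the wild-type SMC1, SA2 and SMC3 lists gave 158, 127 and 19.

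**Figure D1:**
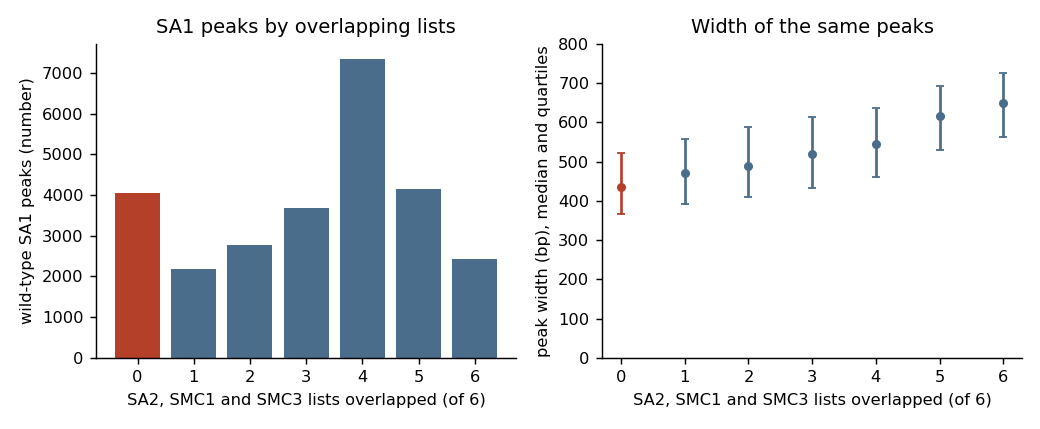
Left, number of wild-type SA1 peaks by the number of SA2, SMC1 and SMC3 lists they overlap, with SA1-alone peaks in red. Right, width of the same peaks in bp (points are medians, bars run from the lower to the upper quartile): the median is 435 bp at 0 lists and 650 bp at 6 lists.

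The same rule, turned on the other antibodies, gave shares on both sides of that for SA1. Of the SA1-null peaks, 8.03% of SA2, 29.0% of SMC1 and 8.53% of SMC3 overlapped no list of another antibody. Of the wild-type peaks, 28.6% of SA2, 6.80% of SMC1 and 1.44% of SMC3 did. A share of this kind moves with the length of the lists compared, so it orders lists and not proteins. The names of the lists state a false discovery rate (FDR) of 10, taken to be in percent, which for 26602 peaks corresponds to 2660 false calls. That number refers to the whole SA1 list, and how many of the 4049 SA1-alone peaks are false calls was not tested.

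SA1-alone peaks were narrow. Their median width was 435 bp (quartiles 367 and 521 bp, range 164 to 1509 bp), against 553 bp (quartiles 458 and 649 bp, range 161 to 3366 bp) for the other 22553 SA1 peaks. The medians differed by -118 bp, a ratio of 0.787. The SA1-alone median was the lower one on 20 of 20 chromosomes, with ratios from 0.760 to 0.819. On the autosomes the medians ran from 415.5 to 447 bp for SA1-alone peaks and from 537 to 571.5 bp for the others, so these ranges did not overlap. A wide peak has more room to meet another interval, so width can be tied to the rule and was not tested. How much of the difference in width comes from this was not tested either.

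Width also ordered the SA1 peaks that do have partners. Medians stood at 471 bp with 1 other list, 490 bp with 2, 520 bp with 3, 546 bp with 4, 616 bp with 5 and 650 bp with all 6. The 4385 SA1 peaks whose SMC1 or SMC3 partner was called in SA1-null cells only had a median of 485 bp. In 10 classes of width with near-equal numbers of SA1 peaks, 35.0% (interval 33.2 to 36.9%) of the narrowest class were SA1-alone. The share was 17.4% in the fourth class and 3.36% (interval 2.74 to 4.12%) in the widest. It was lower in each wider class than in the class before it, although the fifth and sixth classes, and the 2 widest, lie within each other's intervals.

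**Figure D2:**
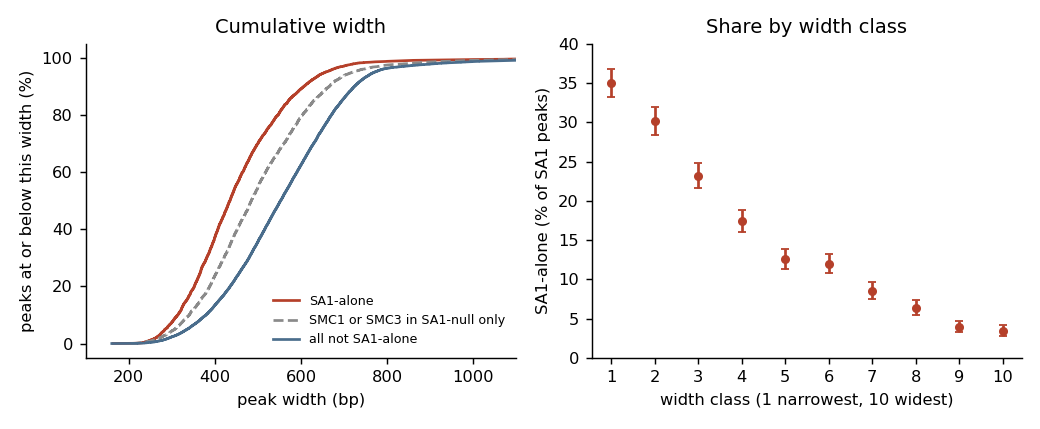
Left, cumulative share of peaks (%) against peak width (bp, axis ends at 1100 bp) for SA1-alone peaks, for SA1 peaks with SMC1 or SMC3 called in SA1-null cells only, and for all SA1 peaks that are not SA1-alone, which include the second group; the medians are 435, 485 and 553 bp. Right, SA1-alone share of SA1 peaks (%) in 10 classes of width with 95% Wilson intervals, from 35.0% in the narrowest to 3.36% in the widest.

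Wide SA1-alone peaks exist. Of the 4049, 904 (22.3%) were wider than 534 bp, the median of all wild-type SA1 peaks, against 54.8% of the other SA1 peaks. The widest was chr3:143865808-143867316, with 1509 bp and 510 bp from the nearest SA1-null SMC3 peak. The next was chr3:119658338-119659715, with 1378 bp, and its nearest other subunit was SA1-null SMC1 at 2095 bp. The third, chr4:20704448-20705738 with 1291 bp, was remote, with no other subunit within 175548 bp. Of the 10 widest, 5 stood less than 1000 bp from another subunit. These were the widest one and chr6:6322322-6323579, chr3:37540444-37541677, chr3:38784757-38785963 and chr14:12386245-12387393. The remaining 3 were chr2:117864789-117866043, chr13:27204865-27206087 and chr8:105745304-105746478, at 7753, 79493 and 4227 bp from another subunit. None of these 10 met either input list or the list of the SA1 antibody in SA1-null cells.

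Most SA1-alone peaks lay more than 1000 bp from any other subunit. Gaps from arbitrary positions were not measured, so the gaps have no baseline here. The gap to the nearest SA2, SMC1 or SMC3 peak of either genotype had a median of 15121 bp, with quartiles of 4109 and 47435 bp. It was at most 100 bp for 43 peaks (1.06%), at most 1000 bp for 359 (8.87%, interval 8.03 to 9.78%) and at most 10000 bp for 1680 (41.5%). It was above 100000 bp for 575 peaks (14.2%) and above 500000 bp for 64. By list, the median gap was 18598 bp to SMC1, 25154 bp to SMC3 and 134425 bp to SA2 of SA1-null cells. It was 36210 bp to SMC1, 58963 bp to SMC3 and 102624 bp to SA2 of wild-type cells. The order of the lists is the order of their lengths, from the longest to the shortest. The peak nearest to an SA1-alone peak was an SA1-null SMC3 peak in 33.5% of cases and an SA1-null SMC1 peak in 32.9%, with 12 ties given to the list named first.

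**Figure D3:**
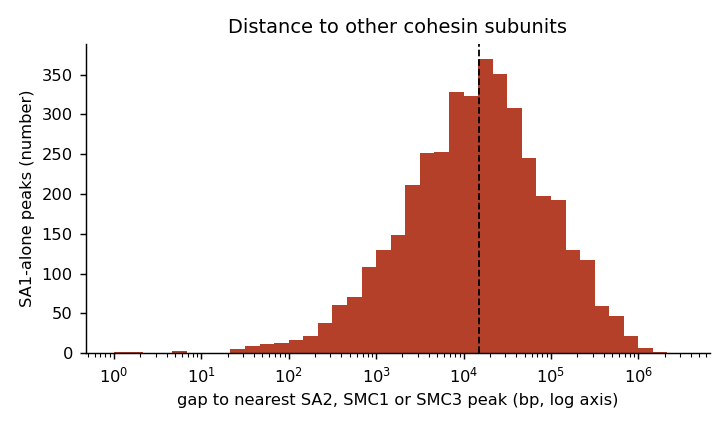
Number of SA1-alone peaks by the gap in bp to the nearest SA2, SMC1 or SMC3 peak of either genotype (log axis). The dashed line marks the median of 15121 bp, and 359 of the 4049 peaks lie at 1000 bp or less.

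The edge of the rule was thinly filled. Just inside it, the smallest gaps were 1 bp for chr6:6322322-6323579, 2 bp for chr2:102853471-102853874, and 5 bp for chr5:112234048-112234541, chr9:41404465-41404900 and chr15:77716730-77717136. Just outside it, the smallest overlaps were 7 bp for chr6:99015962-99016560, 8 bp for chr2:135975272-135975783, 16 bp for chr6:144971929-144972225, 18 bp for chr10:7900943-7901284 and 20 bp for chr3:48898285-48898774. Only 34 of the 22553 other SA1 peaks overlapped another subunit by less than 100 bp, and the median of their largest overlap was 523 bp. Of the 359 SA1-alone peaks within 1000 bp of another subunit, 194 (54.0%, interval 48.9 to 59.1%) stood next to an interval that itself overlapped a second wild-type SA1 peak. Of the same 359 peaks, 127 were near 1 list and 19 were near all 6.

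Among the SA1-alone peaks, width differed little with the gap. The median was 445 bp (interval 433 to 460 bp) for gaps up to 1000 bp, 428 bp (interval 418 to 437 bp) from there to 10000 bp, 434 bp (interval 428 to 440 bp) to 100000 bp and 444 bp (interval 433 to 457 bp) beyond. The farthest peaks were also not wide. The 5 farthest from any other subunit were chrX:41582077-41582404, chrX:32099578-32100024, chr3:43146959-43147223, chr9:18549066-18549520 and chr5:26608939-26609185. Their gaps were 1671107, 1253207, 1231414, 1217767 and 1194600 bp and their widths 328, 447, 265, 455 and 247 bp, in that order.

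SA1-alone peaks had fewer SA1 neighbours on average, and made up a larger share of the SA1 peaks where SA1 itself was sparse. Most were not in the sparsest places: 764 had up to 5 SA1 neighbours within 500 kb, 1046 had 6 to 10, 1758 had 11 to 20 and 481 had 21 to 42. The number of neighbours uses the wild-type SA1 list only and was not part of the rule. Within 500 kb of an SA1-alone peak there were on average 12.1 other SA1 peaks, against 15.2 around the other SA1 peaks, and the SA1-alone mean was the lower one on 20 of 20 chromosomes. Of the 120 SA1 peaks with no SA1 neighbour in that distance, 72 were SA1-alone (60.0%, interval 51.1 to 68.3%). The share was 47.3% with 1 or 2 neighbours, 31.3% with 3 to 5, 18.1% with 6 to 10, 13.0% with 11 to 20 and 9.16% (interval 8.41 to 9.97%) with 21 to 42. It fell in every step, and the intervals of neighbouring steps did not overlap apart from those with 0 and with 1 or 2 neighbours (42.8 to 51.9% in the second).

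The difference in neighbours was present within classes of width as well. In each of the 10 width classes the SA1-alone peaks had fewer neighbours than the other SA1 peaks, with mean differences between -3.84 and -2.94. With the other SA1 peaks weighted to the widths of the SA1-alone peaks, their mean was 15.4, a difference of -3.28, against -3.05 without weights. SA1 peaks whose SMC1 or SMC3 partner was called in SA1-null cells only, with or without SA2 in either genotype, spanned a smaller range. They made up 18.7% (interval 17.1 to 20.4%) of the SA1 peaks with up to 5 neighbours and 15.2% (interval 14.2 to 16.2%) of those with 21 to 42. For SA1-alone peaks the same shares were 36.4% (interval 34.4 to 38.5%) and 9.16%. A lower mean number of SA1 neighbours was not limited to SA1-alone peaks. The 285 SA1 peaks whose only partner was SA2 had a mean of 11.2 SA1 neighbours and a median of 9, against a median of 11 for SA1-alone peaks, and stood at a median of 41033 bp from a partnered SA1 peak.

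**Figure D4:**
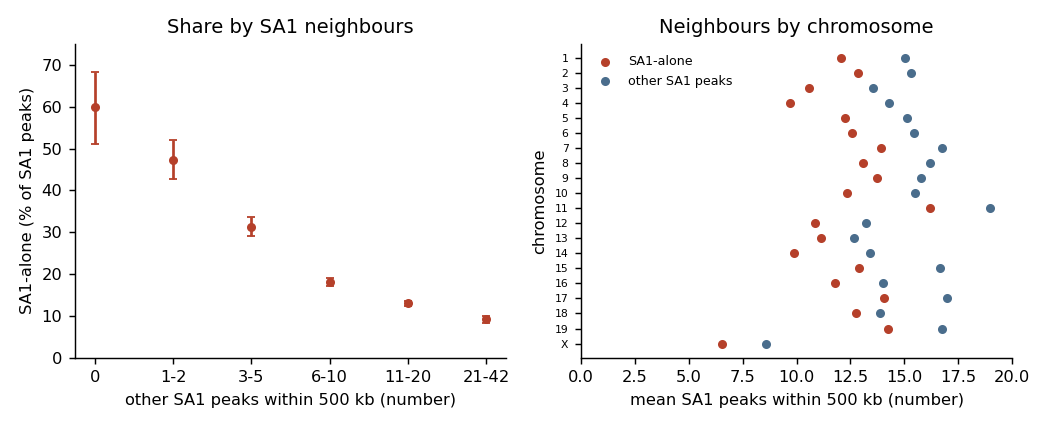
Left, SA1-alone share of SA1 peaks (%) by the number of other SA1 peaks within 500 kb, with 95% Wilson intervals, from 60.0% with none to 9.16% with 21 to 42. Right, mean number of other SA1 peaks within 500 kb on each chromosome, around SA1-alone peaks (red) and around the other SA1 peaks (blue); red lies left of blue on all 20.

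A smaller share of SA1-alone peaks than of the other SA1 peaks had certain SMC1 or SMC3 peaks within 100 kb. These were SMC1 peaks of either genotype and SMC3 peaks of SA1-null cells that themselves had no peak of another antibody. Such intervals overlap no SA1 peak, so none of them decided which peaks were SA1-alone. They come from the same lists that the rule used, so the measure is not independent of the rule. The shares below are a description, and what sets them was not tested. The same SMC1, SMC3 or SA2 peak can lie within 100 kb of several SA1 peaks. The counting intervals do not take this into account, so an interval that leaves out 0 is not a test. At least one SA1-null SMC1 peak without another antibody lay within 100 kb of 52.8% of the SA1-alone peaks and of 72.1% of the other SA1 peaks, a difference of -19.3 percentage points (Newcombe interval -21.0 to -17.7). For SA1-null SMC3 the shares were 19.8% and 30.9% (difference -11.1 points, interval -12.5 to -9.74). In both, the share was the higher one for SA1-alone peaks on 0 of 20 chromosomes. Wild-type SMC1 gave 12.4% and 17.9% (difference -5.47 points, interval -6.57 to -4.31), higher for SA1-alone peaks on 2 of 20 chromosomes. For SA2 the interval of the difference over all peaks held 0 in both genotypes. In SA1-null cells SA2 peaks without another antibody lay within 100 kb of 3.51% of SA1-alone peaks and 3.25% of the others (difference 0.252 points, interval -0.324 to 0.904). In wild-type cells they lay within 100 kb of 16.3% and 17.3% (difference -0.945 points, interval -2.16 to 0.322). Wild-type SMC3, with 224 such peaks, gave 1.88% and 2.12% (interval of the difference -0.665 to 0.257 points). Within classes of SA1 neighbours, 2 of the 8 SA2 intervals left out 0, in opposite directions. They were -3.14 points (-5.44 to -0.640) for wild-type SA2 with 6 to 10 neighbours, and 1.58 points (0.147 to 3.71) for SA1-null SA2 with 21 to 42.

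The SA1-null SMC1 difference was also seen within classes of SA1 neighbours. These classes are broad, and the number of neighbours was not matched inside them. Within the sparsest class, the SA1-alone share was 60.0% with 0 neighbours and 31.3% with 3 to 5. Among peaks with up to 5 SA1 neighbours, an SA1-null SMC1 peak without another antibody was within 100 kb of 13.6% of SA1-alone peaks and 32.3% of the others. Among peaks with 6 to 10 neighbours the shares were 42.4% and 55.3%, and among those with 11 to 20 they were 67.1% and 76.8%. With 21 to 42 neighbours they were 85.2% and 88.5%, with an interval of the difference from -6.83 to -0.232 points. This SA1-null SMC1 difference was smaller in each denser class. For SA1-null SMC3 the differences were -6.5, -6.9, -6.5 and -6.1 points from the sparsest to the densest class, and each interval left out 0. For wild-type SMC3 the interval held 0 in every class. For wild-type SMC1 the differences were -4.22, -3.22, -2.38 and -2.92 points in the same order of classes, and the interval of the last held 0 (-6.64 to 1.20).

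SA1-alone peaks also tended to neighbour each other. The nearest SA1 peak was itself SA1-alone for 24.9% (interval 23.6 to 26.3%) of the SA1-alone peaks and for 12.8% (interval 12.4 to 13.2%) of the other SA1 peaks, beside 15.2% of all SA1 peaks. Among the others, it was so for 30.2% (interval 25.1 to 35.7%) of the 285 SA1 peaks whose only partner was SA2, so the SA1-alone peaks were not the only ones with a high share. The difference was 12.1 percentage points (Newcombe interval 10.8 to 13.6), and the SA1-alone share was the higher one on 20 of 20 chromosomes. It was present at short and at long range. Where the nearest SA1 peak was within 1000 bp, the shares were 28.3% and 9.57%, and where it was more than 200 kb away they were 47.3% and 27.9%. At more than 200 kb, 45.1% (interval 41.5 to 48.8%) of all SA1 peaks were SA1-alone, close to the 47.3% among SA1-alone peaks. Between 1000 and 5000 bp the shares were 15.3% (interval 12.7 to 18.4%) and 12.6% (interval 11.6 to 13.7%), which overlap. The rule decides both whether a peak is SA1-alone and whether its nearest SA1 peak is, so these shares are a description. Where SA1 peaks lie close, the same interval of another subunit can overlap both. The SA1-alone share also fell as SA1 neighbours became more numerous, and these shares were not matched for that number. How much of the difference comes from either was not tested.

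Distance to an SA1 peak that has a partner, which is also set by the rule, differed in the same direction with exceptions. The median was 30340 bp (quartiles 8532 and 95915 bp) from an SA1-alone peak and 19154 bp (quartiles 5611 and 48318 bp) from another SA1 peak, a ratio of 1.58. The SA1-alone median was the larger one on 18 of 20 chromosomes. The exceptions were chromosome 9, with 18460 bp and 18572 bp, and chromosome 11, with 14292 bp and 16530 bp. The quartile ranges overlap widely, so single peaks cannot be told apart by this distance.

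Most SA1-alone peaks were single in the order of SA1 peaks along a chromosome. In all, 2382 (58.8%) had a partnered SA1 peak on either side, or the end of the list, and 892 stood in pairs. Runs of 3 consecutive SA1-alone peaks numbered 123 and held 369 peaks (9.11%). Beyond these there were 26 runs of 4, 24 of 5, 8 of 6, 8 of 7, 5 of 9 and 2 of 10, and the longest had 13. The longest run was chr1:114651598-119416604, a stretch of 4765007 bp. It held no SMC1 or SMC3 peak in either genotype, 1 SA2 peak in SA1-null cells and 8 SA2 peaks in wild-type cells. Its 13 SA1 peaks were 286 to 731 bp wide with a median of 541 bp, and stood 24806 to 466398 bp from another subunit. This stretch was chosen for its length after the values were seen, and the run itself follows from the rule.

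In windows of 1 Mb the SA1-alone peaks were spread widely. Of the 2412 windows with an SA1 peak, 1847 held an SA1-alone peak, and 1270 held 1 or 2. Windows with 1 or 2 SA1 peaks had 46.6% SA1-alone, and those with 21 to 43 had 9.84%. The window with the most was on chromosome 18 from 37 to 38 Mb, with 13 of 29 SA1 peaks. It was followed by chromosome 8 from 105 to 106 Mb with 11 of 19, chromosome 13 from 27 to 28 Mb with 10 of 10, chromosome 6 from 77 to 78 Mb with 9 of 12 and chromosome 15 from 62 to 63 Mb with 9 of 19. The windows on chromosomes 18, 8 and 15 held 24, 23 and 23 SMC1 peaks in SA1-null cells and 10, 5 and 5 in wild-type cells. They held 20, 11 and 14 SMC3 peaks in SA1-null cells and 5, 1 and 4 in wild-type cells. Whether these counts are high or low for a window was not tested. The window on chromosome 6 held 3 SMC1 peaks in SA1-null cells and 0 in wild-type cells.

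Among the 1924 windows with at least 5 SA1 peaks, those on chromosome 13 from 27 to 28 Mb and from 10 to 11 Mb were the only 2 in which every SA1 peak was SA1-alone. In the first, 10 peaks spanned chr13:27133847-27822704. They began with 3 wide ones, of 700 bp at chr13:27133847-27134546, 632 bp at chr13:27172807-27173438 and 1223 bp at chr13:27204865-27206087. A pair of 428 and 429 bp followed at chr13:27240029-27240456 and chr13:27240614-27241042. Next came 3 narrow ones of 364 bp at chr13:27505611-27505974, 358 bp at chr13:27589557-27589914 and 384 bp at chr13:27752643-27753026. The last were 587 bp at chr13:27798259-27798845 and 617 bp at chr13:27822088-27822704. The first of the 10 stood 8475 bp from another subunit and the others 47435 bp or more. The window held 5 SMC1, 4 SMC3 and 0 SA2 peaks in SA1-null cells, against 1 SMC1, 1 SMC3 and 0 SA2 peaks in wild-type cells.

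The SA1-alone share differed between chromosomes. On the 19 autosomes it averaged 15.0% ± 2.37 (SD over autosomes), from 10.2% on chromosome 19 and 10.8% on chromosome 11 to 18.4% on chromosome 8 and 19.04% on chromosome 14. On chromosome X it was 23.0% (176 of 765, interval 20.2 to 26.1%), above every autosome, against 15.0% over all autosomal SA1 peaks. The difference was 8.02 points (Newcombe interval 5.14 to 11.2). Per length, X had the fewest of both kinds, with 1.09 SA1-alone and 3.63 other SA1 peaks per Mb, against 1.61 ± 0.202 and 9.23 ± 1.35 on the autosomes (SD over 19). The autosomal range was 1.28 to 1.97 per Mb for SA1-alone peaks and 7.31 to 12.9 per Mb for the others. Of the SA1-alone peaks 4.35% were on X, against 2.61% of the other SA1 peaks.

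X is also the chromosome with the fewest SA1 peaks per Mb. Within 3 broad classes of SA1 neighbours the interval of the difference held 0 in 2. The number of neighbours was not matched inside a class. With up to 5 SA1 neighbours the SA1-alone share was 35.5% on X and 36.5% on autosomes (interval of the difference -7.49 to 5.87 points), and with 6 to 10 neighbours it was 19.6% and 18.1% (interval -2.67 to 6.35 points). With 11 to 42 neighbours it was 16.1% on X (38 of 236) and 11.9% on autosomes (interval 0.0390 to 9.45 points). Across the 20 chromosomes the SA1-alone share and the number of SA1 peaks per Mb had Pearson's r = -0.797 and Spearman's rho = -0.483. Over the 19 autosomes the values were -0.649 and -0.396. Without the 2 chromosomes farthest from the median density, X and 11, they were -0.536 and -0.292. These are descriptions, since all points come from the same lists and the density is the denominator of the share.

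**Figure D5:**
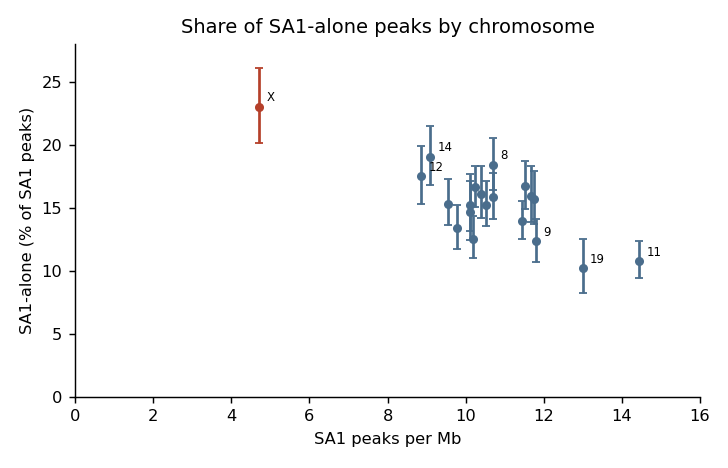
SA1-alone share of SA1 peaks (%) with 95% Wilson intervals against SA1 peaks per Mb, 1 point per chromosome with the outermost ones named. Chromosome X (red) lies at 23.0% and 4.72 per Mb, and the 19 autosomes (blue) lie between 10.19 and 19.04%.

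The lists that show enrichment without a cohesin target met few SA1-alone peaks. Together, both input lists and the 177 peaks that the SA1 antibody gave in cells without SA1 overlapped 9 of the 4049 SA1-alone peaks (0.222%, interval 0.117 to 0.422%). They overlapped 53 of the 22553 other SA1 peaks (0.235%), and 62 of all 26602 (0.233%). The difference of -0.0127 percentage points had a Newcombe interval of -0.140 to 0.194. The other SA1 peaks were not alike in this. Of the 53, 36 belonged to the 285 SA1 peaks whose only partner was SA2 (12.6% of them). The 22268 SA1 peaks with an SMC1 or SMC3 partner had 17 (0.0763%, interval 0.0477 to 0.122%), and the SA1-alone share was 0.146 points above theirs (Newcombe interval 0.0311 to 0.348). Only 1 SA1-alone peak lay on an SA1-null SA1 peak, against 11 of the other SA1 peaks. All 11 belonged to the 285 peaks with SA2 as the only partner. These 3 lists are short, with 436, 417 and 177 intervals, so they could have met only a small part of the SA1-alone peaks.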

How the data were processed

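The members, comparisons and measures were chosen with earlier results of these data known. The authors deposited interval lists of 3 columns (chromosome, start, end) for 8 immunoprecipitation sets and 2 inputs. Per the submitters' processing notes, CASAVA 1.7 was among the tools and positions refer to mm9. The sources used here name neither an aligner nor a peak caller. Per the labels' protocols, fragments of 100 to 200 bp were sequenced on a Genome Analyzer IIx. Depth is unknown. Starts were read as 0-based. Overlap was 1 bp or more, and gaps are the bases between intervals. The overlap functions recovered 100% of members in simulated lists of 26000 peaks, and bedtools 2.31.1 gave the same 4049 members. Neighbours were counted between midpoints, and megabase densities use the span from the first to the last interval of any list. Python 3.11.15, numpy 2.4.6 and scipy 1.17.1 were used. Shares have 95% Wilson intervals, differences of shares Newcombe intervals and medians order-statistic intervals. All of these count peaks as independent, although neighbouring peaks share their surroundings. No test was made, because each group has 1 list. Regions were named by rule as the 10 widest, the 5 farthest, the 5 nearest to the rule's edge on each side and the 5 fullest windows; the longest run and the windows without partners were added after their values were seen. Sequence features were not analysed, since no genome of the build was used.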

Additional observations from a re-analysis of the deposited data

How the results depend on the processing

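The number of SA1-alone peaks was within 1.5 times of 4049 in all alternatives but 2: it was 904 (6.81%) in the widest 50% of the SA1 list and 8197 (30.8%) against wild-type lists only. Leaving out 1 list gave 15.7% without wild-type SA2, 15.8% without wild-type SMC1, 20.1% without SA1-null SMC1 and 16.9% without SA1-null SMC3. Counting intervals within 500 or 1000 bp as shared gave 14.5% and 13.9%. Directions of difference were kept wherever the counting interval had left out 0. In the widest 50%, SA1-alone minus other was -42.5 bp in width, 0.710 points on X, 21563 bp in distance to a partnered SA1 peak, 0.248 points on background intervals and -1.73 SA1 neighbours. Against wild-type lists only it was -112 bp and -2.27 neighbours, and with neighbours within 100 kb it was -0.551. The share within 1000 bp of another subunit was 10.5% with a 50% overlap, 9.85% in the widest 50% and 6.60% against wild-type lists. Beside the counts, 35 values stayed within their intervals and 19 moved. The measures of SA1 neighbours, the 100 kb distance and their alternatives were chosen after seeing the data. The near-edge share has no width-class value, since the other SA1 peaks have gap 0. Alternatives for sequence features could not be run without a genome, and peaks could not be ranked by score, so width stood in. With depth unknown, an uncalled subunit cannot be told from a weakly bound one. No paired analysis was possible because each group has 1 list and the 2 SA1-null SMC1 samples share theirs.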
